A study of Homo sapiens with 27 samples.

Results

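The insulin-like growth factor (IGF) system is described here through 7 of the 23228 genes in the deposited table, taken by their symbols: the ligands IGF1 and IGF2, the receptors IGF1R, INSR and IGF2R, and the docking proteins IRS1 and IRS2. RNA was sequenced from 3 human castration-resistant prostate cancer lines, which the labels call Ch-CRPC and name DU145-DR, 22Rv1-DR and ARCaPM-DR. Each line carried either a control hairpin RNA of random sequence (Control) or 1 of 2 hairpins against GATA2, a zinc finger transcription factor (shGATA2a and shGATA2b), with 3 libraries in each of the 9 groups. No group lacked a hairpin, and the labels give neither the time after its introduction nor whether replicates were separate cultures, so the spread behind each p-value may be technical. The design asks what lowering GATA2 does to transcripts, and values are normalised reads, that is, reads per gene scaled by 1 factor per library.

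IGF1 and IGF2 are secreted peptides that bind the tyrosine kinase receptor IGF1R, and IGF2 also binds the insulin receptor INSR. The activated receptors phosphorylate IRS1 and IRS2, which recruit phosphatidylinositol 3-kinase and so start AKT and mTOR signalling. IGF2R has no kinase domain and carries IGF2 to lysosomes for breakdown, and in prostate cancer the pathway is best known as a survival signal.

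Libraries held 3.44 M to 19.40 M reads, with a median of 12.87 M. GATA2, the target, was lower in every hairpin library than in every control of its line. In ARCaPM-DR it had whole reads in each library, and its mean was 5.79-fold higher in controls than in knockdowns. In DU145-DR and 22Rv1-DR the ratio was 3.60 and 3.18 as deposited, and 2.82 and 1.68 with the offsets described next removed. GATA2 in 22Rv1-DR then did not pass limma's test (log2 fold change -0.72, SE 0.18, adjusted p = 0.283, against -1.71 and 0.0256 as deposited), its lowest control (1952) lying just above its highest knockdown (1948). Of 9 prostate epithelial markers, including the keratins KRT8 and KRT18, the number with a control mean of at least 10 was 9 in 22Rv1-DR, 5 in ARCaPM-DR and 4 in DU145-DR. KLK3, which encodes prostate-specific antigen, was at 0 in all controls of the last 2 lines. Of 4 mesenchymal markers, 3 reached a control mean of 10 in each line, but these were not the same genes throughout. Control means of VIM were 89.9 (22Rv1-DR), 13011 (DU145-DR) and 47215 (ARCaPM-DR), and those of ZEB1 were 5.24, 880 and 1694 in that order. The other 2 markers were highest in 22Rv1-DR, with CDH2 at 73.0, 0.713 and 0.441 and FN1 at 4518, 171 and 962.

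IGF2 has to be read with a property of the table. Nearly all deposited values (99.954% of 433407 above 0) are whole reads times the library's step, within 0.005 reads. IGF2 was an exception in 23 of its 27 values, while all 162 values of the other 6 members were whole. For 22 of the 23, subtracting exactly 1 whole number left whole reads within 1e-06 reads, among all whole numbers up to 1500 above or below 0. Every one of these offsets was positive, and 19 were multiples of 10. They ran from 70 to 130 in the 9 controls and from 10 to 30 in 13 knockdown libraries. The offsets are therefore larger in controls in every line. GATA2 had offsets of the same kind in 2 lines, all positive in 5 of the 6 controls there (200 to 1300), and negative in 6 of the 7 knockdowns that had one (-800 to 30). The origin of the offsets is not given in the sources used and was not tested. As deposited, the 23 IGF2 values are not whole reads times the step, as scaled reads would be. With the offset removed, 22 of them are. Both readings are given, and the deposited one is not a scaled read count for these values. Removing the offsets was chosen after the data were seen.

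In ARCaPM-DR, IGF2 was lower with both hairpins under both readings. As deposited, the controls held 189, 173 and 183 normalised reads, shGATA2a held 28.8, 17.0 and 23.3, and shGATA2b held 35.0, 27.5 and 37.2. With offsets removed the controls held 88.6, 72.7 and 83.2, from 67, 83 and 130 reads. The shGATA2a libraries then held 8.80, 6.97 and 23.3, and the shGATA2b libraries 15.0, 17.5 and 7.25. The 23.3 of shGATA2a replicate 3 was whole as deposited and rested on 6 reads. Knockdowns and controls did not overlap under either reading, with all 6 knockdowns below the controls, as were those of 10% of genes tested in this line. The fall was a log2 fold change of -2.69 (SE 0.21, adjusted p = 6.3e-05 by limma, n = 3 and 6) as deposited and -2.67 (SE 0.39, adjusted p = 0.0016) with offsets removed. The ratio of control to knockdown means was 6.45 and 6.20. With offsets removed each hairpin passed alone (adjusted p = 0.0043 for shGATA2a and 0.0049 for shGATA2b), and the call held without any 1 of the 9 libraries (highest adjusted p = 0.0149). In this line 18.5% of 13079 genes passed the knockdown test, 2 of the 7 members among them.

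In DU145-DR the direction was the same, but the size depended on the reading. As deposited, IGF2 was 126, 158 and 92.5 in controls, 16.0, 27.2 and 18.5 with shGATA2a, and 26.7, 12.1 and 23.4 with shGATA2b. With offsets removed the controls were 26.1, 27.8 and 22.5, from 40, 39 and 26 reads. The shGATA2a libraries were then 16.0, 7.20 and 8.48, and the shGATA2b libraries 16.7, 12.1 and 10.4, so that the lowest control lay above the highest knockdown, as it did for 8.74% of genes as deposited. The ratio of control to knockdown means was 6.08 as deposited and 2.16 with offsets removed. In limma the log2 fold change went from -2.57 (SE 0.27, adjusted p = 2.0e-04) to -1.10 (SE 0.28, adjusted p = 0.0198). The smaller value did not pass without Control replicate 1 or Control replicate 2 (adjusted p up to 0.0976), nor for shGATA2b alone (adjusted p = 0.109, where 5.76% of genes passed). With the replicate number as a block shGATA2b passed (adjusted p = 0.0234, where 26.3% of genes did so in the fit of deposited values). IGF2 was the 1 member called here, where 16.7% of 13362 genes passed.

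In 22Rv1-DR, IGF2 was called as deposited and its groups overlapped with offsets removed. The deposited controls were 94.7, 78.9 and 115.7, against 18.9, 14.6 and 16.2 with shGATA2a and 8.44, 26.3 and 29.3 with shGATA2b. With offsets removed the controls were 1.72, 8.93 and 5.71, which are 2, 9 and 7 reads. The shGATA2a libraries were then 0.889, 4.63 and 16.2, and shGATA2b replicates 2 and 3 were 6.31 and 19.3, while no offset was found for replicate 1 (8.44). All 9 libraries therefore lay at low levels, with controls inside the range of the knockdowns, and the shGATA2a mean was 1.33 times the control mean. The deposited log2 fold change was -2.37 (SE 0.35, adjusted p = 0.0256), where 0.4% of 13757 genes passed, and IGF2 was the 1 member called. All 6 knockdowns lay below the controls, as for 4.04% of genes. That call was lost without any 1 of 8 of the 9 libraries (adjusted p 0.0617 to 0.1099). With offsets removed the gene fell under the filter on low values and was not tested, and 0.00727% of genes passed.

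**Figure D1:**
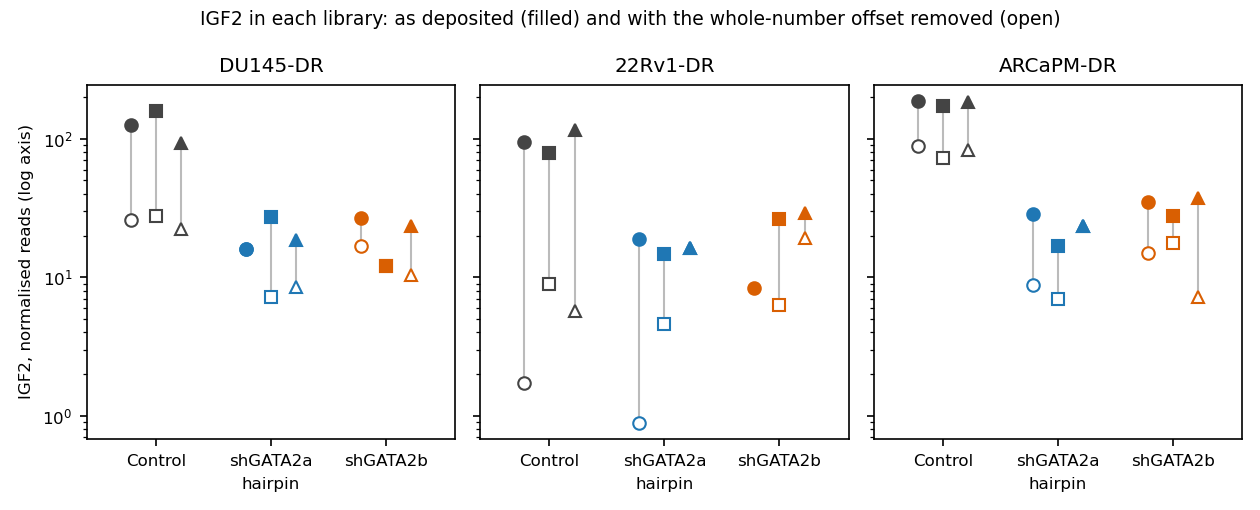
IGF2 in each library, in normalised reads on a log axis, with a panel per line and groups along the x axis (circle, square and triangle are replicates 1, 2 and 3). Filled symbols are deposited values, open symbols the values with the offset removed, joined by a grey line; a filled symbol alone was whole or had no offset. Open controls stay above all knockdown symbols in ARCaPM-DR (72.7 to 88.6) and lie among the open knockdown symbols in 22Rv1-DR (1.72 to 8.93).

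Permuting the 6 knockdown and 3 control libraries exactly (two-sided) gave p = 0.0119 for deposited IGF2 in each line, and in DU145-DR and ARCaPM-DR with offsets removed. No smaller p can come from 84 splits. Whether the fall differed between lines was tested as deposited, where limma's F test over the 3 lines gave an adjusted p of 0.885 and 7% of genes passed. With offsets removed IGF2 was too low in 22Rv1-DR for a comparison of responses with that line. ARCaPM-DR minus DU145-DR was -0.12 (SE 0.44, adjusted p = 0.925, where 7.13% of genes passed) as deposited and -1.57 (SE 0.72, adjusted p = 0.214, where 7.15% passed) with offsets removed.

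Genes beside IGF2 bear on what its reads can be. The fusion transcript INS-IGF2 had no read in any of the 27 libraries. IGF2AS, the antisense gene, ranged from 9.60 to 14.9 in ARCaPM-DR controls and from 1.16 to 13.9 in the knockdowns there. The sources used here do not give the counting tool or its use of strand, so reads of IGF2 and of its antisense gene cannot be told apart. H19, the imprinted neighbour of IGF2, was 76.7, 116.5 and 40.3 in ARCaPM-DR controls and between 42.7 and 94.6 in the knockdowns, which overlapped.

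IGF1, the other ligand, rose in ARCaPM-DR, and all of its values were whole reads. Its promoter is shown because it was the 1 ligand called on whole values and, of the 6 members searched, the 1 with the letters searched for. RefSeq promoter windows (GRCh38.p14, 250 bases before to 50 after a start) matched 6 of the 7 members in 7 windows. IGF2 had no window and was not searched. The letters AGATAA or AGATAG, and likewise TGATAA or TGATAG, which GATA factors can bind, were sought on both strands. They occurred in 1 of these 7 windows and in 25% of 35116 windows of that length. The IGF1 window at chr12:102481698-102481997 held 0 matches. In the other IGF1 window the match, in capitals, starts 236 bases before the start site (position -236) and reads AGATAG on the other strand. The 250 bases before that start, at chr12:102478551-102478800 on the minus strand, are:
IGF1: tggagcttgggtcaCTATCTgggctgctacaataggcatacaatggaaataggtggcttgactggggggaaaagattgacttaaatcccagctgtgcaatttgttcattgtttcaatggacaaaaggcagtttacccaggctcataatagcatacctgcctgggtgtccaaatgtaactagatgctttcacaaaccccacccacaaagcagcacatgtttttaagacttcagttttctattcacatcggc

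IGF1 levels in ARCaPM-DR were 21.2, 5.26 and 16.6 normalised reads in controls, 228.9, 37.8 and 198.2 with shGATA2a, and 42.7, 38.9 and 76.6 with shGATA2b. All 6 knockdowns lay above all 3 controls, as did those of 11% of genes tested in this line. Replicate 2 was the lowest library in each of the 3 arms. The mean went from 14.3 ± 8.19 (SD, n = 3) to 155 ± 103 with shGATA2a, 10.8-fold higher, and to 52.7 ± 20.8 with shGATA2b, 3.68-fold higher. The log2 fold change over both hairpins was 2.55 (SE 0.59, adjusted p = 0.0161 by limma), and the exact permutation p was 0.0238. Of the hairpins, shGATA2a passed alone without a replicate block (3.17, SE 0.69, adjusted p = 0.0151, as 12.8% of genes did), beside 1.93 (SE 0.69, adjusted p = 0.0888) for shGATA2b. The difference between the hairpins did not pass in that fit. The call over both hairpins was lost without Control replicate 2 (adjusted p = 0.069), and that of shGATA2a without its replicate 1 (adjusted p = 0.0768).

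Markers of other cell types moved beside IGF1 in ARCaPM-DR. The summed level of the 6 fibroblast markers was 2368 to 4777 in controls, 7675 to 14936 with shGATA2a and 5691 to 11447 with shGATA2b. COL3A1, a fibrillar collagen, carried most of it, from a control mean of 2198 to 9772 and 7528 (adjusted p = 0.00878, for a log2 fold change of 2.01 ± 0.41 SE). COL1A1, another collagen, had a control mean of 1649, beside 2606 with shGATA2a and 1891 with shGATA2b. Its log2 fold change of 0.42 (SE 0.18, adjusted p = 0.137 by limma) did not pass. COL1A2 stayed at 16.6 or less in each of the 9 libraries, and DCN, LUM and PDGFRA at 4.98 or less. LUM is not silent in every line, since 22Rv1-DR controls held 314 to 661. Of the prostate epithelial markers EPCAM, an adhesion molecule, rose (0.99, SE 0.24, adjusted p = 0.0204), and KRT8 was at -0.74 (SE 0.25, adjusted p = 0.0643). The summed level of the 9 epithelial markers was 8649 to 15657 in controls, 5301 to 11301 with shGATA2a and 7463 to 14734 with shGATA2b, which overlapped. The part of these genes in the IGF1 change was not tested.

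The other lines held little IGF1. In DU145-DR it was at 0 in 8 of 9 libraries, which allows up to 1.96 to 4.32 normalised reads (3 reads, counting error only), and shGATA2b replicate 3 held 2 reads. In 22Rv1-DR it was 4.30, 3.97 and 4.89 in controls, 4.44, 1.16 and 2.42 with shGATA2a, and 4.17, 5.41 and 2.90 with shGATA2b, which overlapped. IGF1 did not pass the filter on low values in either line. Its response in ARCaPM-DR is therefore not compared with the other lines.

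**Figure D2:**
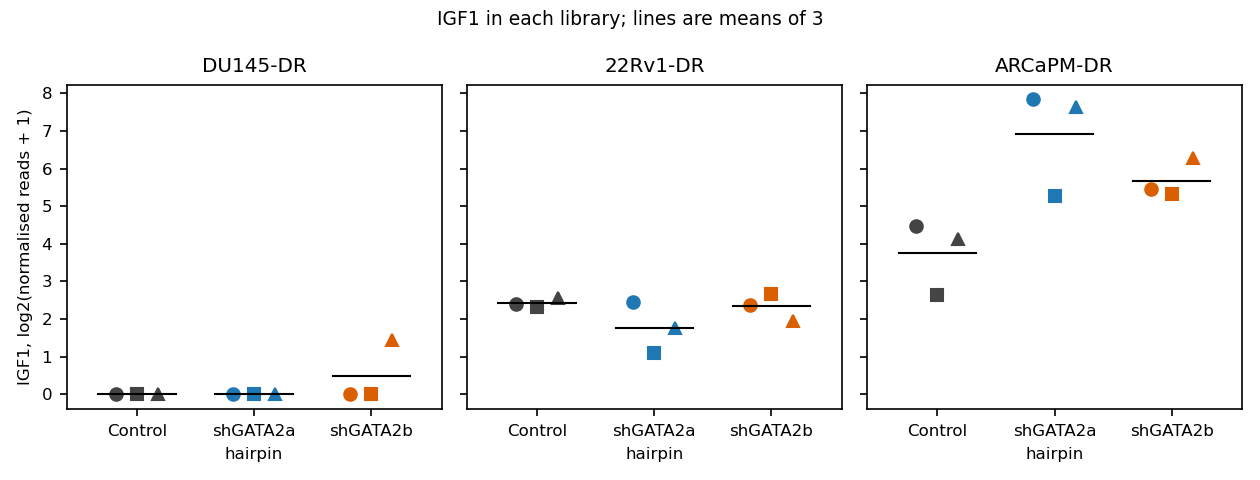
IGF1 in each library as log2(normalised reads + 1), with a panel per line, groups along the x axis, symbols for replicates 1, 2 and 3, and a bar at the mean of 3 log2 values. In ARCaPM-DR all 6 knockdown libraries (37.8 to 228.9 normalised reads) lie above the 3 controls (5.26 to 21.2), and no library of the other lines exceeds 5.41.

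In control libraries the receptors stood at different levels in the 3 lines. IGF1R, the kinase receptor for both ligands, was 1432, 1100 and 1184 in DU145-DR controls, 19.8, 45.6 and 22.8 in 22Rv1-DR controls, and 1125, 998 and 1073 in ARCaPM-DR controls. The 22Rv1-DR libraries stood far below the other two lines, which overlapped each other. The log2 difference was -5.44 (SE 0.27, adjusted p = 1.3e-08 by limma) against DU145-DR, and ARCaPM-DR exceeded 22Rv1-DR by 5.23 (SE 0.27, adjusted p = 1.2e-08). ARCaPM-DR and DU145-DR did not pass (-0.21, SE 0.27, adjusted p = 0.530). In these comparisons 67.6%, 67.1% and 56.1% of 14705 genes passed, and 5, 4 and 3 of the 6 members tested did.

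INSR was lowest in DU145-DR. Its controls held 386, 355 and 342 there, 1276, 1185 and 2121 in 22Rv1-DR, and 1244, 1077 and 1176 in ARCaPM-DR. The log2 differences from DU145-DR were 2.03 (SE 0.20, adjusted p = 4.2e-06) for 22Rv1-DR and 1.69 (SE 0.20, adjusted p = 2.9e-05) for ARCaPM-DR, and these 2 lines did not pass against each other (adjusted p = 0.157). Of the 2 kinase receptors, INSR was the lower in DU145-DR and IGF1R in 22Rv1-DR and, by less, in ARCaPM-DR. Per kb of exon (GENCODE 29), 22Rv1-DR controls held 2.40 normalised reads of IGF1R and 168 of INSR. In that order DU145-DR controls held 101 and 39.7, and ARCaPM-DR controls 87.1 and 128.

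IGF2R, the clearance receptor, had the smallest fold between its highest and lowest control mean of the 3 receptors, 1.63, beside 4.23 for INSR and 42.1 for IGF1R. DU145-DR controls averaged 6692 ± 337, those of 22Rv1-DR 4097 ± 1072 and those of ARCaPM-DR 5513 ± 974 (SD, n = 3 each). It was the highest member per kb in DU145-DR and ARCaPM-DR (477 and 393), while in 22Rv1-DR IRS2 held 369 and IGF2R 292 per kb. Only 22Rv1-DR against DU145-DR passed (log2 difference -0.74, SE 0.20, adjusted p = 0.0065).

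The docking proteins followed different orders. IRS1 controls held 43.1, 42.8 and 66.6 (DU145-DR), 736, 626 and 492 (in 22Rv1-DR), and 1741, 1149 and 1974 (for ARCaPM-DR), and no line overlapped another. The log2 differences were 3.59, 4.96 and, for ARCaPM-DR minus 22Rv1-DR, 1.37 (adjusted p = 5.3e-04 for the smallest). For IRS2, DU145-DR controls held 419, 501 and 609, the 22Rv1-DR ones 3109, 3043 and 2866, and the ARCaPM-DR ones 829, 1386 and 992. Here 22Rv1-DR was highest, by 2.57 over DU145-DR, with ARCaPM-DR 1.05 above DU145-DR and below 22Rv1-DR (-1.52, adjusted p = 3.5e-05). IGF2 in ARCaPM-DR exceeded that in 22Rv1-DR under both readings (0.92, adjusted p = 0.0053, as deposited and 3.86, adjusted p = 6.4e-06, with offsets removed). The other 2 pairs depended on the reading: with offsets removed 22Rv1-DR lay below DU145-DR (-2.22, adjusted p = 5.5e-04, where 67.7% of genes passed) and ARCaPM-DR above it (1.64, adjusted p = 0.0053), whereas neither passed as deposited (-0.36 and 0.56). The offset-free 22Rv1-DR controls are the 2, 9 and 7 reads given above.

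**Figure D3:**
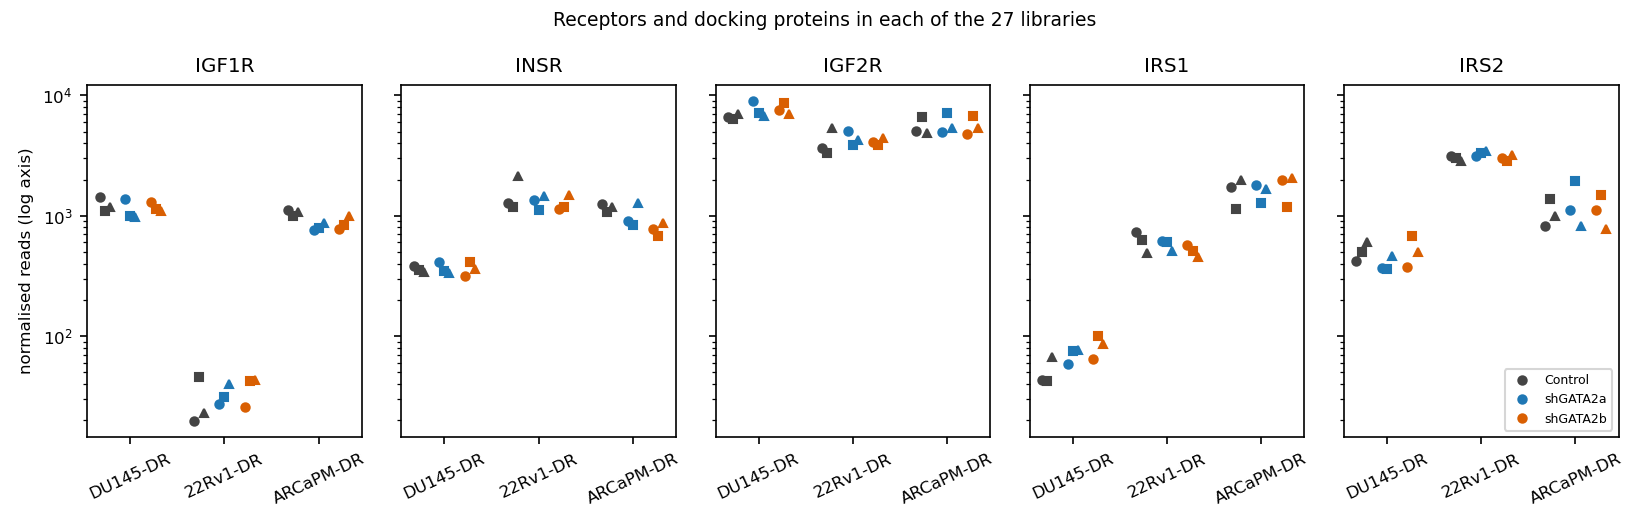
IGF1R, INSR, IGF2R, IRS1 and IRS2 in each of the 27 libraries, in normalised reads on a log axis shared by the 5 panels, with colours for the hairpins and symbols for replicates 1, 2 and 3. IGF1R shows the widest step between lines of the receptors (19.8 to 45.6 in 22Rv1-DR controls, 998 to 1432 in the controls of the other lines).

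Under knockdown, no receptor or docking protein passed limma's test without a replicate block in any line over both hairpins. With the replicate number as a block, IGF1R and INSR passed in ARCaPM-DR, and IRS1 passed in DU145-DR. In ARCaPM-DR the numbers were not taken as pairing, and the share of all genes under that block is not reported here. Without the block, at an unadjusted p under 0.05 there were 1 of 5 in DU145-DR (IRS1), 0 in 22Rv1-DR and 2 in ARCaPM-DR (IGF1R and INSR). DESeq2 called IRS1 in DU145-DR and IGF1R in ARCaPM-DR, and edgeR called 0. The shares of all genes at that unadjusted threshold and by DESeq2 are not reported here. By limma's adjusted test 16.7% of genes passed in DU145-DR and 18.5% in ARCaPM-DR, so these counts are not read as particular to the members. IGF1R in ARCaPM-DR came nearest to passing limma's test, at 762, 789 and 878 with shGATA2a and 782, 845 and 994 with shGATA2b. All 6 lay under the lowest control of 998, as did those of 10% of genes tested in this line. The log2 fold change was -0.34 (SE 0.11, adjusted p = 0.0551), and the exact permutation p was 0.0119. In 22Rv1-DR, where IGF1R was low, the knockdowns held 25.9 to 43.4 and overlapped the controls (0.31, SE 0.31, adjusted p = 0.708), as they did in DU145-DR (-0.11, SE 0.12, adjusted p = 0.574).

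INSR in ARCaPM-DR passed with 1 hairpin in limma without a replicate block. It held 772, 681 and 867 with shGATA2b, all below the controls, and 910, 841 and 1286 with shGATA2a, which overlapped them. The 1286 was replicate 3, the library with the fewest reads (3.44 M), and rested on 331 reads. The log2 fold change was -0.60 (SE 0.17, adjusted p = 0.0428) for shGATA2b, where 14.5% of genes passed, and -0.23 (adjusted p = 0.416) for shGATA2a. The shGATA2b call was lost without any 1 of 7 of the 9 libraries (adjusted p 0.0602 to 0.138), the exceptions being shGATA2a replicates 2 and 3. Over both hairpins it was -0.41 (SE 0.15, adjusted p = 0.0798), and the difference between hairpins did not pass, both without the block. INSR in DU145-DR (0.01, SE 0.11) and 22Rv1-DR (-0.21, SE 0.20) and IGF2R in each line (0.06 to 0.20) did not pass either.

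IRS1 in DU145-DR was higher in most knockdown libraries. They held 58.3, 74.9 and 77.1 with shGATA2a and 64.2, 100.2 and 85.4 with shGATA2b, above 2 of the 3 controls, while Control replicate 3 (66.6) lay among them. The log2 fold change was 0.59 (SE 0.20, adjusted p = 0.0556), and with the replicate number as a block it passed (adjusted p = 0.0025), as 38.8% of genes did. IRS1 in 22Rv1-DR (-0.17) and ARCaPM-DR (0.04), and IRS2 in ARCaPM-DR (0.14), 22Rv1-DR (0.06) and DU145-DR (-0.18), did not pass. Between the 2 hairpins 0 members passed in any line by limma without the block, edgeR or DESeq2. By that limma fit 0.803% of genes passed in ARCaPM-DR and 0% in the other lines. At an unadjusted p under 0.05 it gave 0 members, and edgeR and DESeq2 gave 1 each (IGF1 in ARCaPM-DR). With the block, IGF1 and INSR differed between the hairpins in ARCaPM-DR.

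**Figure D4:**
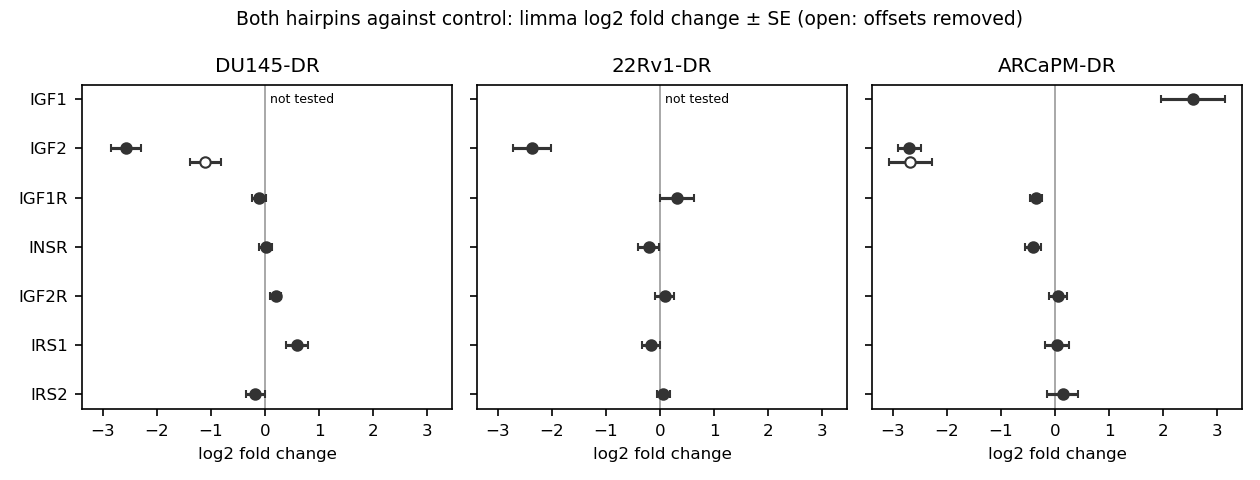
Log2 fold change of both hairpins against control for each member, with a panel per line; points are limma estimates and bars are ± 1 SE, and open points are IGF2 with offsets removed. IGF2 lies below 0 in each panel (deposited -2.57, -2.37 and -2.69), its open point is nearer 0 in DU145-DR (-1.10) than in ARCaPM-DR (-2.67), and the receptors and docking proteins lie between -0.41 and 0.59.

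Downstream of the receptors, genes of the pathway moved in both directions. Of 62 other pathway genes, 56 were tested in DU145-DR, where 7 rose and 4 fell (19.6%, beside 16.7% of all genes). With the replicate block 25 passed (44.6%, beside 38.8% of all genes). In ARCaPM-DR 9 rose and 8 fell of 57 tested (29.8%, beside 18.5%), and in 22Rv1-DR 1 of 57 rose (1.75%, beside 0.4%). Under the replicate block 2 passed in 22Rv1-DR (3.51%, beside 1.21%). The list's median log2 fold change was -0.01 (DU145-DR), 0.01 (22Rv1-DR) and 0.06 (ARCaPM-DR), beside -0.0020, -0.016 and -0.0038 over all genes.

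Among the pathway genes, the small GTPase NRAS rose from 1427 ± 217 to 2747 ± 221 in DU145-DR (0.95) and from 720 ± 156 to 1697 ± 581 in ARCaPM-DR (1.19, adjusted p = 0.0131). RPTOR, the mTOR complex scaffold, rose in both lines (0.41 and 0.69), and RPS6KB2, an S6 kinase, fell in both (-0.57 and -0.75). PIK3R3, a regulatory subunit of phosphatidylinositol 3-kinase, rose in DU145-DR (0.39, adjusted p = 0.0245) and in 22Rv1-DR (0.97, SE 0.17, adjusted p = 0.0351), and the latter did not pass once offsets were removed from other genes.

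Other pathway genes passed in 1 line. In DU145-DR PIK3R2, another such subunit, fell (-0.70, SE 0.15, adjusted p = 0.0087), and PTPN1, a phosphatase of the insulin receptor, rose (0.53, SE 0.10, adjusted p = 0.0036). In ARCaPM-DR the adaptor GAB1 rose from 213 ± 13.8 to 415 ± 61.1 (0.95) and the exchange factor SOS2 rose by 0.73. There SHC1, an adaptor that binds the receptors, fell from 8405 ± 865 to 5089 ± 377 (-0.72, adjusted p = 0.0015), and INPP5D, a lipid phosphatase best known in blood cells, fell by 1.29. Of 6 blood cell markers CD68, a lysosomal glycoprotein abundant in macrophages, fell beside it (-1.75, SE 0.30, adjusted p = 0.0038), from 821 to 1333 in controls to 282 to 698 with shGATA2a and 173 to 326 with shGATA2b. The other 5, among them the pan-leukocyte gene PTPRC, stayed at 9.24 or less in each library, and CD3E was at 0. The part of these markers was not tested. In 22Rv1-DR NRAS, GAB1 and PTPN1 had 0.48, 0.32 and 0.30 and did not pass.

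FOXO transcription factors are held out of the nucleus by AKT, and 20 of their known target genes were followed. Of 18 tested, 3 rose and 3 fell in DU145-DR (33.3%, beside 16.7% of all genes), 4 rose and 1 fell in ARCaPM-DR (27.8%, beside 18.5%), and 0 passed in 22Rv1-DR by limma (5 at an unadjusted p under 0.05, 0 by edgeR and 1 by DESeq2). With the replicate block 11 passed in DU145-DR (61.1%, beside 38.8%) and 2 in 22Rv1-DR (11.1%, beside 1.21%). SESN3, a stress-induced inhibitor of mTOR signalling, rose in DU145-DR (0.95, SE 0.11, adjusted p = 3.3e-04) and in ARCaPM-DR (1.88, SE 0.20, adjusted p = 3.1e-04), but it is among the 58 genes with values that are not whole. CAT, the catalase, fell in both (-0.34 and -0.53).

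In DU145-DR the stress gene GADD45A (0.68) and the transcription factor KLF6 (0.56) rose, and PIK3IP1, an inhibitor of phosphatidylinositol 3-kinase, fell (-0.70, adjusted p = 0.0063). In ARCaPM-DR the cell cycle inhibitor CDKN1B rose from 843 ± 120 to 1617 ± 299 (0.93, adjusted p = 5.0e-04), TXNIP, a thioredoxin-binding protein, by 1.15, and SESN1 by 0.88. In 22Rv1-DR PDK4, a pyruvate dehydrogenase kinase, went from 9972 ± 691 to 6270 ± 742 (-0.68, adjusted p = 0.0917), and SESN3, FBXO32 and BCL6 had 1.26, 0.71 and 0.48, none of which passed.

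The genes whose profile over the 9 group means was most like each member were sought among 11689 genes by the root mean square (RMS) difference of centred log2 profiles. IGF1R was nearest to HLA-B (0.182) and SVIL (0.209), INSR to C4orf41 (0.118) and SPAG4 (0.132), and IGF2R to MRPL46 (0.062) and FAM165B (0.064). IRS1 was nearest to HOXB4 (0.258) and TRIM9 (0.262), and IRS2 to HCN3 (0.114) and AHCYL2 (0.132). IGF2 as deposited was nearest to ADCY9 (0.697) and TBC1D16 (0.811), at a larger distance than the others, and both of these genes also hold values that are not whole. IGF1 did not pass the filter on low values in each line and was not compared.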

How the data were processed

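RNA of 27 libraries was described by 1 table. The deposited values are a normalised signal per gene symbol, and per the submitters' processing notes TopHat2 2.0.9, Cufflinks 1.3.0 and hg19 were used. For the counter, its use of strand and the scaling the sources used here give nothing. Each value was divided by its library's step to recover whole reads (3.44 M to 19.40 M per library). The design had left the unit open between normalised values and raw counts, and the test for normalised values was used. Genes at 10 or more in at least 3 libraries were tested with limma 3.58.1 (R 4.3.3, trend) on log2(value + 1), each line alone, so that a fold change understates low genes. P-values were adjusted by Benjamini-Hochberg over all genes tested, with a threshold of 0.05. Controls of the 3 lines and the difference of responses had their own fits. Differences of responses were read only where a gene passed the filter in each line compared. Members, lists and tests were chosen with earlier results of these data known. Named genes were the 7 members, list genes past the threshold in at least 2 lines or among the 4 smallest adjusted p of a line, and the 2 genes nearest to each member. A list gene that this rule names is not reported here. Alternatives included quantile and median of ratios scaling, a pseudocount of 0.1, edgeR 4.0.16 and DESeq2 1.42.0 on recovered reads, and leaving out libraries. Fits with offsets removed were added after the data were seen. The fit was tested on simulated data. Deviations of same-numbered libraries correlated at 0.275 or more in DU145-DR and 0.211 or more in 22Rv1-DR, so the numbers were taken as pairing there. That pairing enters only the fits with the replicate block. All other fits and the exact permutations ignore it. In ARCaPM-DR the lowest such correlation was 0.0559, and the numbers were not taken as pairing. The median there was nevertheless 0.583, beside 0.393 in DU145-DR and 0.409 in 22Rv1-DR. For libraries of other numbers it was -0.258 in ARCaPM-DR. That negative value follows largely from centring each group on its own mean and is no separate comparison. Promoters and exon lengths come from GRCh38 tables and not from the build of the reads.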

Additional observations from a re-analysis of the deposited data

How the results depend on the processing

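No called change of a member reversed under an alternative in which it was tested. IGF2 in 22Rv1-DR was not tested with offsets removed, where its shGATA2a mean was 1.33 times the control mean. Of 1084 alternative values for members, 1015 kept direction and side of the threshold. The number of members called under knockdown in DU145-DR (1) became 2 with DESeq2, quantile normalisation, the replicate block, and the block with offsets removed, 0 without genes that hold values not whole, and 1 to 2 when each library was left out. In 22Rv1-DR (1) it became 0 with offsets removed (limma, limma with the block, edgeR) and without those genes, and 0 to 1 when a library was left out. In ARCaPM-DR (2) it became 4 with the replicate block, with or without offsets, where IGF1R (adjusted p = 0.0045) and INSR (0.0021) also passed and where IGF1 (0.0196) and INSR (0.0353) differed between hairpins. It became 1 without those genes, and 1 to 4 when a library was left out. The block there rests on numbers shared by labels, whose same-number correlations had a median of 0.583 and a lowest value of 0.0559. Under it 59.6% of the 57 other pathway genes tested passed, beside 29.8% without it. The share of all genes under that block, also between hairpins, is not reported here. Leaving out each library gave IGF2 in 22Rv1-DR -2.523 to -2.103 and IGF1 in ARCaPM-DR 1.996 to 2.96. Uncalled values near 0 crossed it when a library was left out: INSR in DU145-DR (-0.03698 to 0.06098) and 22Rv1-DR (-0.3645 to 0.05479), IGF2R in 22Rv1-DR (-0.0561 to 0.2875) and ARCaPM-DR (-0.03036 to 0.1956), IRS1 (-0.1899 to 0.2004) and IRS2 (-0.03027 to 0.3442) in ARCaPM-DR, and the IGF2 response of ARCaPM-DR minus DU145-DR (-0.303 to 0.07924). Quantile normalisation reversed IGF2R in ARCaPM-DR (-0.0187) and the uncalled IGF2 response differences of 22Rv1-DR minus DU145-DR (-0.1308), ARCaPM-DR minus 22Rv1-DR (0.1947) and ARCaPM-DR minus DU145-DR (0.06389). INSR with shGATA2b in ARCaPM-DR missed the threshold with no filter (adjusted p = 0.0512). The causes were not tested, except that leaving out genes removes IGF2 itself. Depth limits IGF1 and IGF2, which rest on few reads in many libraries. Responses between lines are not compared for IGF1, nor for IGF2 with 22Rv1-DR once offsets were removed, since the gene was below the filter there.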
